A study of Mus musculus with 6 samples.

Results

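The genes examined here make, take up, store and export cholesterol, together with the regulators of the sterol response. They numbered 29, listed by gene symbol. Of these, 28 had a probe whose transcript accession led to the gene, of 23462 genes with such a probe, and no probe was matched to Acat2, an enzyme that joins acetyl-CoA units at the start of the pathway. Insig1 was well above background on only 2 of the 3 arrays of each group and was not tested. The remaining 27 genes were well above background on all 6 arrays, so none of them entered the test through 1 group alone.

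The samples were microglia of male C57BL/6 mice aged 10 weeks, collected by magnetic selection for the surface receptor P2RY12, and each was hybridized to its own 1-colour Agilent mouse array. Both groups carried a loxP-flanked PGC-1α and eGFP allele that needs Cre to act on it. The control group was PGC-1αf/f littermates (3 samples). In the mPGC-1α group (3 samples) this allele was combined with a Cre recombinase that is expressed from the Cx3cr1 locus and activated by tamoxifen, a driver that also acts in other Cx3cr1-expressing myeloid cells. The paper left an interval between tamoxifen and its experiments, and states that this confines the overexpression to microglia and spares macrophages. For these arrays, the sources used here do not say in so many words that both genotypes received tamoxifen. PGC-1α is a transcriptional coactivator best known for mitochondrial biogenesis, and the comparison asks what its overexpression does to resting microglia. The groups also differ in the Cre allele, so an effect of that allele cannot be told apart from one of PGC-1α.

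Cells make cholesterol from acetyl-CoA through mevalonate, farnesyl diphosphate, squalene and lanosterol. When sterol in the endoplasmic reticulum runs low, the escort protein SCAP carries the SREBP transcription factors to the Golgi, where they are cut free to switch on the synthesis enzymes, and the INSIG proteins hold SCAP back when sterol is plentiful. Sterol excess instead activates the nuclear receptors LXRα and LXRβ, whose targets Abca1 and Abcg1 export cholesterol and whose target Mylip leads lipoprotein receptors to degradation. Microglia depend on this balance when they take up and clear myelin lipid.

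SREBP binds a short sterol element in the promoters of its targets and often needs NF-Y, which binds CCAAT, beside it. The 250 bases before the RefSeq transcript start (GRCm38.p6) are printed for 4 enzymes. Hmgcs1 (chr13:119690101-119690350, plus strand) makes HMG-CoA and is a textbook SREBP target. Mvk (chr5:114444019-114444268, plus strand), mevalonate kinase, and Tm7sf2 (chr19:6067851-6068100, minus strand), a sterol C14 reductase, had mPGC-1α values above all controls. Cyp51 (chr5:4104698-4104947, minus strand), lanosterol 14α-demethylase, had mPGC-1α values below all controls. Each sequence runs 5′ to 3′ on the strand of the gene, and capitals mark CCAAT or its complement ATTGG and, in Hmgcs1, the sterol element TCACNCCAC.
Hmgcs1: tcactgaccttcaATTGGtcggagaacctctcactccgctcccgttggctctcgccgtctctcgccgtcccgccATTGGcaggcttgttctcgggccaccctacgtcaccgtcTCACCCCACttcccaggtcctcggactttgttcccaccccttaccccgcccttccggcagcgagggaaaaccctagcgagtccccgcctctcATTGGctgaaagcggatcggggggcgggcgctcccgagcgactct
Mvk: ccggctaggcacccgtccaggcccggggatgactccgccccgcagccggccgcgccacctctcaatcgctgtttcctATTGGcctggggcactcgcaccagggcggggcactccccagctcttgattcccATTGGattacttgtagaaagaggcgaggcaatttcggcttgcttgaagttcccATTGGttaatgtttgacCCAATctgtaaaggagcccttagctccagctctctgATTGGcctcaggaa
Tm7sf2: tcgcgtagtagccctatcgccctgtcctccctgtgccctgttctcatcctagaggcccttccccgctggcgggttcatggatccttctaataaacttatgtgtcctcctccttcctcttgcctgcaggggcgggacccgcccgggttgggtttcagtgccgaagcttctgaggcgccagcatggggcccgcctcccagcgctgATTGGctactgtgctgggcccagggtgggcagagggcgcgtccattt
Cyp51: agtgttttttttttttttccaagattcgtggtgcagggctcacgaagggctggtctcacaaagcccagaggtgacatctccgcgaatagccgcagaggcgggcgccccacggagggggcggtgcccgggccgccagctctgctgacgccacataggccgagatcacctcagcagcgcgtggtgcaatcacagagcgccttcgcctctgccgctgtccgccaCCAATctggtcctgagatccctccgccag

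Motifs were searched on both strands of windows from 250 bases before to 50 bases after each RefSeq start, which covered 24 of the 29 genes in 32 windows. Fdps, Fdft1, Sqle, Stard4 and Abcg1 had no window. CCAAT was found in 65.6% of the windows of these genes and in 37.4% of all 32851 windows, with 5 matches in Mvk, 4 in Hmgcs1 (1 of them after the start and not printed) and 1 each in Tm7sf2 and Cyp51. TCACNCCAC was found in 1 window, that of Hmgcs1, and in 1.24% of all windows. CACCCCAC, which overlaps it in Hmgcs1, was found in Hmgcs1 and Acat2 and in 2.87% of all windows. The ERR element TCAAGGTCA, bound by the estrogen-related receptors that PGC-1α coactivates, was found in no window of these genes and in 0.423% of all. The LXR repeat (AGGTCA given as a direct repeat with 4 bases between) was found in none of them and in 0.0152% of all. These matches are descriptions of the letters in the windows. Only exact matches were counted, so a window without a match may still hold a variant of an element.

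Before the results, some arrays need mention. PGC-1αf/f replicate 3 correlated less with the remaining arrays (mean r = 0.928 over tested probes) than those did on average with all others (0.962 to 0.972), and 13 of its spots were flagged as non-uniform against 737 to 1302. On mPGC-1α replicate 3, labelled male, 0 of 4 Y-linked genes were well above background, against 4 of 4 on every other array. On mPGC-1α replicate 1, all 7 tested astrocyte markers were at their highest. All arrays lay on 1 slide with the genotypes in different slide rows, so slide row and genotype cannot be told apart. Between 27025 and 30272 of 59305 spots were well above background, and 0 spots were saturated. All 8 microglial markers, among them P2ry12 and Cx3cr1, were well above background on every array. Their mean level ran from 3.88 to 4.27 in the controls and from 3.66 to 4.17 in mPGC-1α. Each mean took the markers with a value on that array, so the arrays are averaged over different markers. Only 3 of the 8 had values on all 6 arrays. All 8 markers had a lower mean in mPGC-1α (median difference -0.29), with Fcrls measured on 1 control only. Of the 8, 1, Cx3cr1, reached an unadjusted p under 0.05 (limma, -0.51, unadjusted p = 0.0090, adjusted p = 0.194), against 9.21% of all probes lower at that p. The Cre driver lies at the Cx3cr1 locus in mPGC-1α alone, and its part in this value was not tested.

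Levels are given as log2 signal minus the 75th percentile of the array. Ppargc1a, which encodes PGC-1α, measured 0.19, -0.44 and -1.21 in PGC-1αf/f replicates 1 to 3 and 0.57, 0.28 and 0.08 in mPGC-1α replicates 1 to 3. The group means differed by 0.80 ± 0.35 (SE) log2 units, which is 1.74-fold, and the groups overlapped, because PGC-1αf/f replicate 1 lay above mPGC-1α replicate 3. This difference did not pass (limma, two-sided, unadjusted p = 0.0546, adjusted p = 0.306). Without PGC-1αf/f replicate 3 it was 0.44. Whether the probe lies within the transgene was not examined.

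None of the 27 cholesterol genes differed between mPGC-1α and PGC-1αf/f microglia after adjustment over all probes (limma, lowest adjusted p = 0.238), against 0.0792% of all probes tested. The differences were small: they ran from -0.22 (Insig2) to 0.52 (Sqle), with a median of 0.14 for the 27 genes and -0.0026 over all 25257 probes. At an unadjusted p under 0.05 stood 2 genes, Fdps and Sqle, both with higher means in mPGC-1α, which is 7.41% of the genes against 16.7% of all probes (7.53% higher and 9.21% lower). Among the 12372 tested genes with a symbol (of 12412) whose brightest probe was well above background on all 6 arrays, as for these 27, the share was 12.3% (6.6% higher and 5.67% lower) and 0.0323% passed the adjusted threshold. The difference was above 0 for 18 genes (66.7%) and below 0 for 9, where 49.7% of all probes and 51.5% of such genes were above 0. Among the 26 genes measured on all 6 arrays, the groups did not overlap for 8 (30.8%, against 25.2% of all probes and 22.1% of such genes), 6 with mPGC-1α higher (23.1%, against 11.4% and 11.2%) and 2 with mPGC-1α lower (7.69%, against 13.7% and 10.9%). No test was run on these shares. In these bulk cells, fewer cells of a type and less RNA per cell cannot be told apart.

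The precision was enough to bound most genes. The 95% interval of the difference lay within a 2-fold change in either direction for 25 of the 27 genes (92.6%), against 76.6% of all probes and 80.4% of the genes above background on all 6 arrays. The exceptions were Sqle, whose interval reached 1.01, and Stard4, whose interval reached 1.11. An unadjusted p under 0.05 together with a 2-fold change was seen for no gene of the list, for 3.04% of all probes and for 1.98% of such genes.

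**Figure D1:**
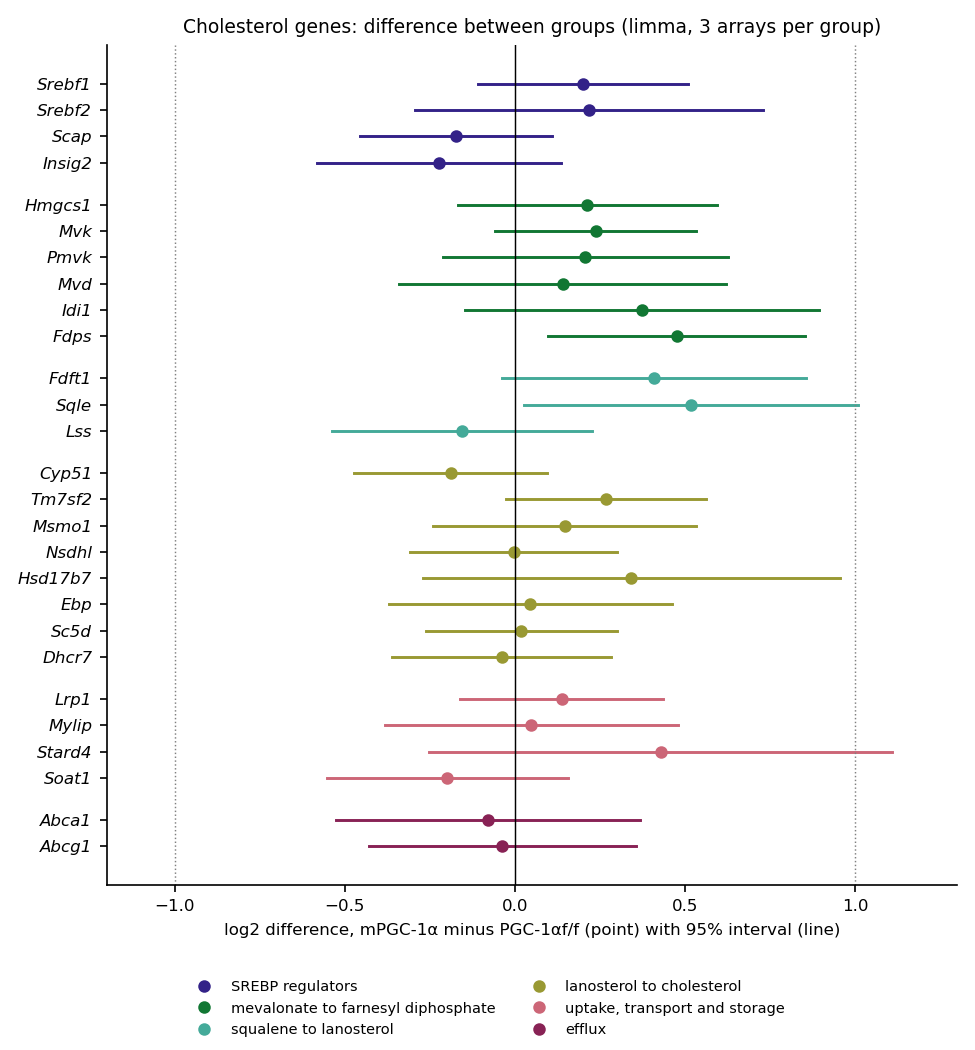
Log2 difference, mPGC-1α minus PGC-1αf/f, of the 27 tested genes by role; points are limma estimates, lines their 95% intervals, and dotted lines mark 2-fold. The intervals of Fdps and Sqle lie above 0, those of Sqle and Stard4 cross the upper 2-fold line, and the others include 0 and stay inside both lines.

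The transcription factors and their sensors came first in the pathway and showed no shared direction, with 2 of 4 tested above 0 and a median of 0.01 that ran from -0.12 to 0.07 over 18 alternatives. Srebf1 encodes SREBP-1 and measured 2.64, 2.56 and 2.44 in the controls and 2.84, 2.76 and 2.64 in mPGC-1α. All mPGC-1α arrays lay above all controls, but the gap between the groups was 0.0037, and the difference of 0.20 ± 0.13 (SE) did not pass (limma, adjusted p = 0.455). Whether its probe can tell the SREBP-1a and SREBP-1c transcripts apart was not examined. Srebf2, whose product SREBP-2 is the main activator of the synthesis enzymes, measured -2.47, -2.14 and -2.64 in the controls and -2.05, -1.97 and -2.58 in mPGC-1α. The groups overlapped, with replicate 3 lowest in each, and the difference was 0.22 ± 0.22 (SE). When mPGC-1α replicate 1, 2 or 3 was left out it was 0.14, 0.10 or 0.41, and leaving out replicate 2 or 3 of the controls gave 0.36 or 0.11.

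Scap, the sterol sensor that escorts SREBP, measured 2.71, 2.67 and 2.69 in the controls and 2.44, 2.52 and 2.58 in mPGC-1α. The mPGC-1α arrays lay below every control, with a difference of -0.17 ± 0.12 (SE, limma adjusted p = 0.478). Insig2, which retains SCAP in the endoplasmic reticulum, measured 1.14, 1.01 and 1.02 in the controls and 1.01, 0.89 and 0.60 in mPGC-1α. The groups overlapped narrowly and the difference was -0.22 ± 0.15 (SE), or -0.11 without mPGC-1α replicate 3, with all 3 of its tested probes below 0. Insig1, itself an SREBP target, measured -3.31, -3.22 and -3.98 in the controls and -2.77, -3.56 and -4.88 in mPGC-1α. Its highest and lowest values were both mPGC-1α arrays, and in a fit without the filter on dim probes its difference was -0.23 (limma, unadjusted p = 0.655), while it was 0.34 without mPGC-1α replicate 3 and 0.10 without replicate 3 of both groups.

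**Figure D2:**
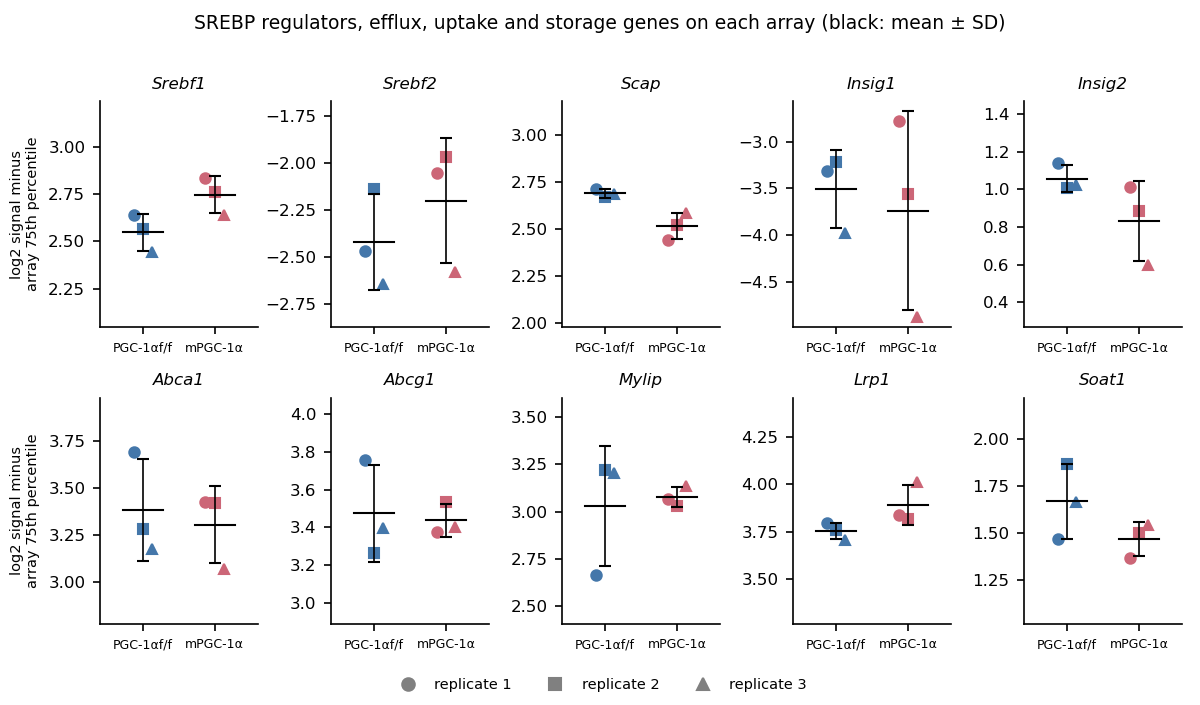
Level on each of the 6 arrays (log2 signal after subtraction of the array's 75th percentile) of 5 SREBP regulators and 5 genes of uptake, storage and efflux; symbols mark the replicate and black lines the mean ± SD (n = 3 per group). The mPGC-1α arrays lie above all controls for Srebf1 and Lrp1 and below all controls for Scap, and the groups overlap in the other panels.

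The mevalonate enzymes, which run from HMG-CoA to farnesyl diphosphate, shared a direction without passing the test. All 6 tested had a higher mean in mPGC-1α, with a median difference of 0.22 and a range from 0.14 to 0.48. All 6 stayed above 0 under every scaling tried and 5 without replicate 3 of both groups, while the median was 0.09 after the median shift, 0.34 without PGC-1αf/f replicate 1 and 0.13 without PGC-1αf/f replicate 3. Fdps, which makes farnesyl diphosphate for both sterols and protein prenylation, had the largest difference of them. It measured 2.27, 2.27 and 1.88 in the controls and 2.61, 2.73 and 2.51 in mPGC-1α. All mPGC-1α arrays lay above all controls by at least 0.24, and PGC-1αf/f replicate 3 was the lowest array. The difference was 0.48 ± 0.16 (SE), or 1.39-fold (limma, unadjusted p = 0.0206, adjusted p = 0.238). It was 0.34 between the arrays of slide column 1, 0.46 between those of column 2, and 0.34 without PGC-1αf/f replicate 3.

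Mvk, mevalonate kinase, measured 0.57, 0.66 and 0.50 in the controls and 0.86, 0.85 and 0.73 in mPGC-1α. The groups did not overlap, and the difference was 0.24 ± 0.12 (SE, limma unadjusted p = 0.0998). Idi1, the isomerase that balances both isoprenoid building blocks, measured 0.41, 0.10 and -0.42 in the controls and 0.35, 0.36 and 0.50 in mPGC-1α. PGC-1αf/f replicate 1 lay within the mPGC-1α values, and the difference of 0.37 ± 0.22 (SE) was 0.15 without PGC-1αf/f replicate 3 and 0.56 without PGC-1αf/f replicate 1. Hmgcs1, HMG-CoA synthase, measured 2.87, 2.48 and 2.40 in the controls and 2.77, 2.78 and 2.84 in mPGC-1α, so that its highest value was a control, and the difference was 0.21, or 0.12 without PGC-1αf/f replicate 3 and 0.36 without PGC-1αf/f replicate 1. Pmvk and Mvd, the kinase and decarboxylase that follow Mvk, overlapped between groups with differences of 0.21 and 0.14. That of Pmvk was 0.33 or 0.07 when replicate 1 or 3 of the controls was left out, and 0.12 without mPGC-1α replicate 3. That of Mvd was 0.04 without mPGC-1α replicate 1 or without replicate 2, 0.22 without PGC-1αf/f replicate 2 and 0.34 without mPGC-1α replicate 3.

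Farnesyl diphosphate is joined to squalene by Fdft1, oxidized by Sqle and closed into lanosterol by Lss. Sqle, a rate-limiting monooxygenase, measured 0.91, 0.53 and 0.40 in the controls and 1.17 and 1.09 in mPGC-1α replicates 1 and 2, while its spot on mPGC-1α replicate 3 was flagged as an outlier and dropped. Both remaining mPGC-1α arrays lay above all controls, with a difference of 0.52 ± 0.20 (SE), or 1.43-fold, over 5 arrays (limma, unadjusted p = 0.0414, adjusted p = 0.284). Fdft1 measured 1.04, 0.77 and 0.40 in the controls and 1.28, 1.07 and 1.09 in mPGC-1α. The groups were apart by 0.033, the difference was 0.41 ± 0.19 (SE, limma unadjusted p = 0.0669), and it was 0.24 without PGC-1αf/f replicate 3. Lss ran the other way, with overlapping groups and a difference of -0.15 ± 0.16 (SE), which was -0.28 without mPGC-1α replicate 1 and -0.05 without mPGC-1α replicate 3.

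The 8 enzymes that turn lanosterol into cholesterol did not move together. Their median difference was 0.03 (-0.10 after the median shift, up to 0.08 without mPGC-1α replicate 1), with 5 above 0 and 3 below, and none reached an unadjusted p of 0.05. Tm7sf2 measured 0.06, 0.14 and 0.19 in the controls and 0.35, 0.36 and 0.49 in mPGC-1α. It was the enzyme of this stretch with all mPGC-1α arrays above all controls, at a difference of 0.27 ± 0.12 (SE, limma unadjusted p = 0.0679), although its second tested probe gave 0.01. Cyp51, which acts just before it, measured 0.43, 0.48 and 0.55 in the controls and 0.30, 0.33 and 0.26 in mPGC-1α. These groups did not overlap either, in the opposite direction, at -0.19 ± 0.12 (SE, limma unadjusted p = 0.157).

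Hsd17b7, the 3-ketosteroid reductase of the C4 demethylation complex, had a difference of 0.34 ± 0.26 (SE) with overlapping groups, and of 0.06 without PGC-1αf/f replicate 3. A dimmer probe of the same gene, well above background on 5 of the arrays, measured -3.60, -3.58 and -3.86 in the controls and -2.99, -2.99 and -2.98 in mPGC-1α. It was above background on 2 of 3 controls and so could be tested only through mPGC-1α, where it was higher, and its values are given with no test. Msmo1, the C4 methyl oxidase, differed by 0.15 ± 0.16 (SE), or 0.06 without PGC-1αf/f replicate 3, 0.09 without PGC-1αf/f replicate 2 and 0.29 without PGC-1αf/f replicate 1. Nsdhl, Ebp, Sc5d and Dhcr7, which complete demethylation, isomerization, desaturation and the final reduction, differed by -0.0040, 0.05, 0.02 and -0.04, each less than its SE, and the sign of each turned under at least 1 other way of processing.

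Across the synthesis enzymes as a group, 13 of 17 tested had a higher mean in mPGC-1α, with a median difference of 0.21, and 2 of 17 reached an unadjusted p under 0.05 (11.8%, against 16.7% of all probes and 12.3% of the genes above background on all 6 arrays). A single control array carried much of this. PGC-1αf/f replicate 3 was the lowest of the 6 arrays for 8 of the 16 enzymes with all values, 5 of them among the 6 mevalonate enzymes, and the mean deviation of the 16 from their own gene means was -0.23 there, against -0.05 to 0.10 on the other arrays. Without it the median of the enzymes was 0.07, with 13 still above 0, and no gene of the list reached an unadjusted p under 0.05. Shifting each array to its median in place of its 75th percentile moved the median of all probes to -0.14 and that of the enzymes to 0.07, with 11 above 0 and 6 below. This shift lowers the difference of every gene with all values by the same amount. The gap between the enzymes and all probes, 0.21 under both scalings, could therefore hardly change and is no test. On the same array all 7 tested blood leukocyte markers, all 5 tested endothelial and mural cell markers and 4 of 6 tested neuronal markers were at their lowest, while 4 of the 7 oligodendrocyte markers above background on all arrays were at their highest (mean deviation 0.46). The 7 tested astrocyte markers had a mean deviation of -0.31 there and 0.66 on mPGC-1α replicate 1, where that of the enzymes was 0.10. On mPGC-1α replicates 2 and 3 the astrocyte markers stood at -0.23 and -0.33 and the enzymes at 0.08 and 0.06. The part of these other cells in the enzyme values was not tested.

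**Figure D3:**
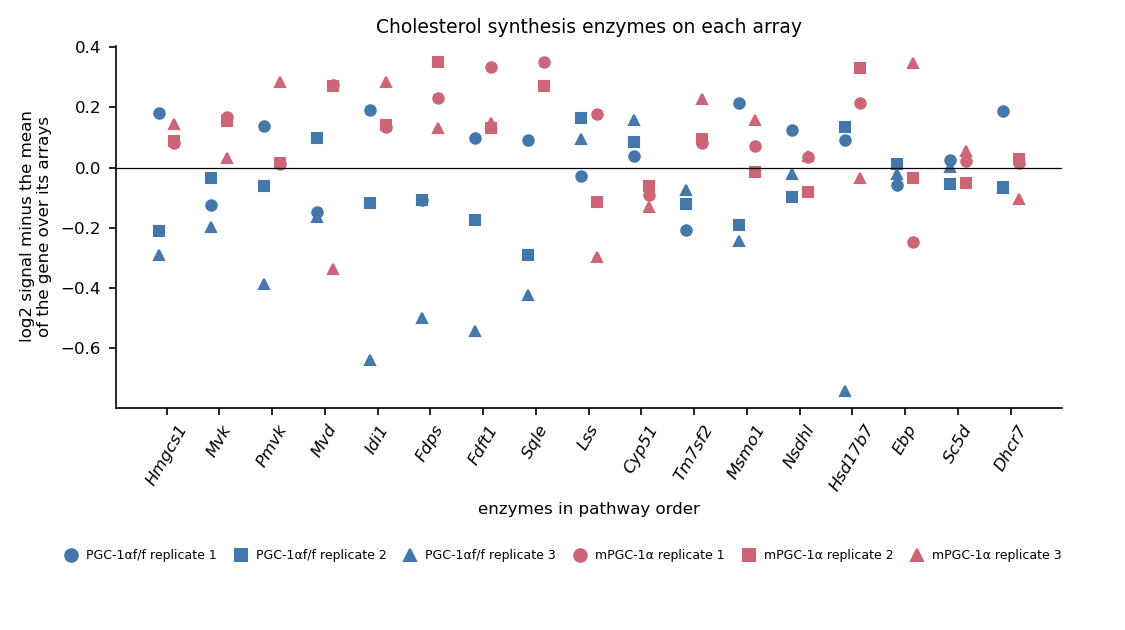
Log2 signal of each of the 17 tested synthesis enzymes on each array, minus the mean of the gene over its arrays; colours mark the group and symbols the replicate. PGC-1αf/f replicate 3 is the lowest point for 8 of the 16 enzymes with all values and for Sqle, and is the point farthest from 0 for Idi1, Fdps, Fdft1 and Hsd17b7 among others.

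The genes of uptake, intracellular transport and storage gave a median difference of 0.09, with 3 above 0 and 1 below. The median was -0.03 under quantile normalization and with normexp, -0.04 after the median shift, and ran from 0.01 to 0.14 when an array was left out. Lrp1, an endocytic receptor for lipoproteins and many other ligands, measured 3.79, 3.76 and 3.71 in the controls and 3.84, 3.82 and 4.01 in mPGC-1α. The mPGC-1α arrays lay above all controls by 0.026, with a difference of 0.14 ± 0.13 (SE, limma adjusted p = 0.593), and it was 0.08 without mPGC-1α replicate 3 and turned sign under normexp background correction (-0.0076). Mylip, the ubiquitin ligase that degrades lipoprotein receptors, measured 2.66, 3.22 and 3.21 in the controls and 3.06, 3.03 and 3.14 in mPGC-1α. The control values lay on both sides of the mPGC-1α values, and the difference of 0.05 ± 0.18 (SE) changed sign under quantile normalization, the median shift, normexp background correction and array weights, and without PGC-1αf/f replicate 1.

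Stard4, a soluble sterol carrier and SREBP target, measured -2.35, -1.81 and -2.98 in the controls and -1.96, -1.80 and -2.09 in mPGC-1α. The controls were widely spread and overlapped the mPGC-1α arrays, and the difference of 0.43 ± 0.29 (SE) was 0.13 without PGC-1αf/f replicate 3 and 0.71, with an unadjusted limma p under 0.05, without PGC-1αf/f replicate 2. Soat1, which esterifies cholesterol for storage in droplets, had a difference of -0.20 ± 0.15 (SE) at its brightest probe, which was -0.10 without PGC-1αf/f replicate 2 and -0.30 without PGC-1αf/f replicate 1. Its 4 tested probes disagreed, with 2 above 0 and 2 below. Those of Ebp also disagreed, with 1 above 0 and 1 below.

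No difference in the efflux transporters was detectable with 3 arrays per group. Abca1, which loads cholesterol onto apolipoprotein A-I, measured 3.69, 3.28 and 3.18 in the controls and 3.43, 3.42 and 3.07 in mPGC-1α. The highest value was a control and the lowest an mPGC-1α array, and the difference was -0.08 with a 95% interval from -0.52 to 0.37. Abcg1, which exports cholesterol to formed lipoprotein particles, measured 3.76, 3.26 and 3.40 in the controls and 3.37, 3.54 and 3.40 in mPGC-1α. The groups overlapped fully, and the difference was -0.04 with an interval from -0.43 to 0.36. The sign of both turned with array weights and without PGC-1αf/f replicate 1, which was the highest array for each, and that of Abca1 also without mPGC-1α replicate 3.

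Lists of neighbouring lipid genes put these values in context. Of 53 such genes, 48 were well above background on all 6 arrays and 47 of these could be tested, since the spots of Acly, ATP citrate lyase, were dropped on 4 arrays. Of the 47, 0 passed the adjusted threshold, and 8 reached an unadjusted p under 0.05 (17.0%, against 12.3% of all genes so measured), 6 with higher and 2 with lower means in mPGC-1α. The list of lipoprotein receptors and handling held 4 of the 6 among its 10 tested genes, with 8 above 0 and a median difference of 0.25, which was 5 above 0 and 0.11 after the median shift, 0.09 without PGC-1αf/f replicate 3, 0.06 without replicate 3 of both groups and 0.43 without PGC-1αf/f replicate 1. Apoc1, an exchangeable apolipoprotein, measured 0.51, 0.67 and 0.58 in the controls and 1.22, 2.13 and 2.05 in mPGC-1α. Every mPGC-1α array lay above every control by at least 0.55, and the difference was 1.21 ± 0.25 (SE), or 2.32-fold (limma, unadjusted p = 0.00196, adjusted p = 0.129). It was 1.21 without PGC-1αf/f replicate 3 and 1.09 without replicate 3 of both groups.

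Apoc2, the cofactor of lipoprotein lipase, measured 0.38, 1.33 and -0.72 in the controls and 1.55, 2.37 and 2.59 in mPGC-1α. The groups did not overlap, though the controls were widely spread, and the difference was 1.84 ± 0.52 (SE, limma unadjusted p = 0.0097, adjusted p = 0.197), or 1.11 without replicate 3 of both groups. Lpl, lipoprotein lipase itself, measured -0.23, -0.05 and -0.83 in the controls and 0.20, 0.57 and 0.48 in mPGC-1α. These groups were also separate, at 0.79 ± 0.23 (SE, limma unadjusted p = 0.0111, adjusted p = 0.201), or 0.52 without replicate 3 of both groups. Vldlr, a lipoprotein receptor, differed by 0.56 ± 0.22 (SE) with overlapping groups (limma, unadjusted p = 0.0394), and this p was under 0.05 in 9 of 18 alternatives.

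Blood cells and border macrophages also express lipid-handling genes, and their markers are given beside these results. The mean level of 10 blood leukocyte markers, of which 7 to 9 were well above background on an array, ran from -1.45 to 0.68 in the controls and from 0.63 to 1.12 in mPGC-1α, with PGC-1αf/f replicate 3 at -1.45. All 7 tested had a higher mean in mPGC-1α (median difference 1.08), and none reached an unadjusted limma p under 0.05. The mean of 6 border macrophage markers, all above background on every array, ran from 0.35 to 0.61 in the controls and from 0.54 to 1.15 in mPGC-1α. Mrc1 had no value on replicate 2 of either group and is missing from those means. All 6 had a higher mean in mPGC-1α (median difference 0.29), and none reached an unadjusted limma p under 0.05. The mean of 10 oligodendrocyte markers ran from -0.48 to 0.14 in the controls and from -1.07 to -0.88 in mPGC-1α, and 6 of the 7 above background on all arrays had a lower mean there (median difference -0.55). The mean of 8 endothelial and mural cell markers, of which 5 or 6 were well above background on an array, ran from -3.42 to -2.09 in the controls and from -2.75 to -2.10 in mPGC-1α, with all 5 tested above 0 (median difference 0.51) and none at an unadjusted p under 0.05. Mog was well above background on all controls and on no mPGC-1α array. The mean of 8 astrocyte markers, of which 7 or 8 were well above background on an array, ran from -0.17 to 0.37 in the controls. In mPGC-1α it ran from -0.13 to 0.91. Of the 7 tested, 4 had a higher mean in mPGC-1α (median difference 0.07), and all 7 were highest on mPGC-1α replicate 1. A list of 9 immediate-early genes was drawn up for tissue dissociation, but what raised them was not tested. Their mean, over the genes with a value on an array, ran from 1.28 to 1.66 in the controls and from 2.54 to 2.68 in mPGC-1α. The 7 with values on all 6 arrays had mean deviations from -0.83 to -0.43 in the controls and from 0.62 to 0.73 in mPGC-1α. Of the 9, 2 (Fosb and Dusp1) rose past the adjusted threshold (limma, adjusted p = 0.0169 and 0.0122), against 0.0323% of genes above background on all 6 arrays. With the replicate block neither passed (adjusted p = 0.0951 for Fosb and 0.0807 for Dusp1), and neither passed when PGC-1αf/f replicate 2 (0.0793 and 0.076), mPGC-1α replicate 2 (0.144 and 0.125), mPGC-1α replicate 3 (0.137 and 0.0827) or replicate 3 of both groups (0.0677 and 0.0694) was left out, nor did Fosb without PGC-1αf/f replicate 1 (0.0649). Their differences, 3.48 and 2.24, stayed between 3.08 and 3.80 and between 2.10 and 2.34 over the 18 alternatives. The part of these cells, and of whatever raised the immediate-early genes, in the lipid gene values was not tested.

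Nr1h3 encodes LXRα and measured -1.75, -1.56 and -2.75 in the controls and -1.37, -1.23 and -0.88 in mPGC-1α. All mPGC-1α arrays lay above all controls, with a difference of 0.86 ± 0.32 (SE, limma unadjusted p = 0.0322, adjusted p = 0.268), which was 0.49 without PGC-1αf/f replicate 3 and 0.35 without replicate 3 of both groups. The LXR targets named at the start, Abca1, Abcg1 and Mylip, had the small differences given above. Other LXR targets were not examined as a set, and LXR activity was not tested. The 7 genes of oxysterol enzymes and LXR above background on all arrays had a median of 0.15, with 5 above 0. It was 0.01 after the median shift, 0.07 without mPGC-1α replicate 1, 0.06 without mPGC-1α replicate 2 and 0.22 without mPGC-1α replicate 3. Soat2, the other cholesterol esterifying enzyme, measured -3.41, -1.68 and -3.49 in the controls and -2.21, -1.16 and -0.50 in mPGC-1α. The groups overlapped, and since only 2 of 3 controls were well above background its values are given with no test. The other 7 genes of sterol transport and storage had a median of -0.09, which ran from -0.22 after the median shift to -0.0054 without PGC-1αf/f replicate 3.

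The machinery that cleaves SREBP and turns over its regulators had mostly lower means in mPGC-1α. Of 8 tested genes, 7 had a difference below 0 (7 or 8 under every alternative), with a median of -0.26. The median was -0.39 after the median shift, -0.15 with array weights and -0.13 without replicate 3 of both groups. Among the 6 genes with all values, 4 had every mPGC-1α array below every control, against 10.9% of genes above background on all 6 arrays, namely Mbtps2, Erlin1, Erlin2 and Aup1. Erlin1, an endoplasmic reticulum membrane protein that takes part in sterol sensing, measured 0.23, 0.42 and 0.80 in the controls and -0.02, 0.04 and 0.08 in mPGC-1α, a difference of -0.45 ± 0.17 (SE, limma unadjusted p = 0.0348, adjusted p = 0.273). Its highest value was PGC-1αf/f replicate 3, the highest array for 4 of these 6 genes, and without it the difference was -0.29 and the median of the list -0.17. The mean deviation of these 6 genes was highest on that array (0.29) and lowest on mPGC-1α replicate 3 (-0.21). That of the 7 oligodendrocyte markers above background on all arrays was highest and lowest on the same arrays (0.46 and -0.37). The part of oligodendrocytes in these values was not tested. Mbtps2, the protease that makes the second cut in SREBP, differed by -0.36 ± 0.18 (SE, limma unadjusted p = 0.0913), or -0.19 without mPGC-1α replicate 3, -0.12 without replicate 3 of both groups, -0.24 with normexp and -0.21 with array weights.

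The SREBP-1 targets of fatty acid synthesis had 7 of 9 tested genes above 0 and a median of 0.20, with none at an unadjusted p under 0.05. The median was 0.07 after the median shift and 0.32 without mPGC-1α replicate 3. Farnesyl diphosphate also feeds the isoprenoid branch, where 3 of 6 tested genes were above 0 and the median was -0.08, with a range from -0.22 after the median shift to 0.0038 without mPGC-1α replicate 3. Ggps1, which extends it to geranylgeranyl diphosphate, measured 1.50, 1.46 and 1.58 in the controls and 1.15, 1.01 and 1.31 in mPGC-1α. The mPGC-1α arrays lay below all controls, with a difference of -0.36 ± 0.14 (SE, limma unadjusted p = 0.0337, adjusted p = 0.271). Pdss1, which builds the side chain of ubiquinone, lay on the other side of 0 with separate groups and a difference of 0.53 ± 0.19 (SE, limma unadjusted p = 0.0277, adjusted p = 0.257).

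**Figure D4:**
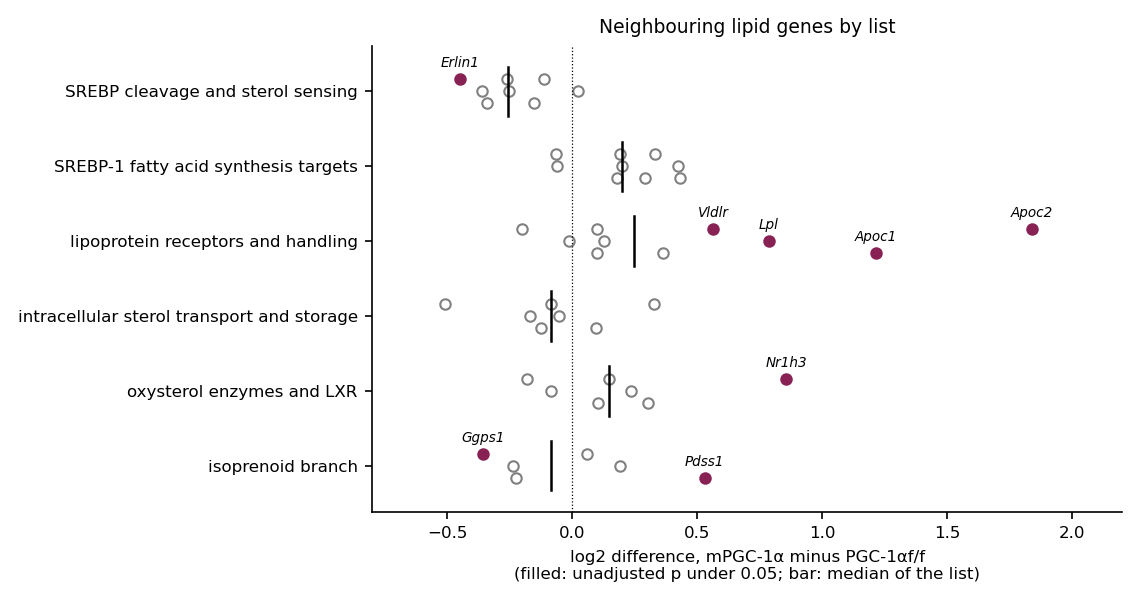
Log2 difference, mPGC-1α minus PGC-1αf/f, of the 47 tested neighbouring lipid genes that were above background on all 6 arrays, in 6 lists; filled points have an unadjusted limma p under 0.05 and the bar is the median of the list. The 4 filled points of lipoprotein handling lie between 0.56 and 1.84, and 7 of 8 points of SREBP cleavage lie below 0.

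The medians of all 27 genes and of the synthesis enzymes kept their direction under each way of processing tried, while their size changed, and medians of several smaller groups changed sign, as given above. Over 18 alternatives the median of the 27 genes stayed above 0, between 0.0074 under the median shift and 0.15 without mPGC-1α replicate 1, and 0 genes passed the adjusted threshold in each of them.

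**Figure D5:**
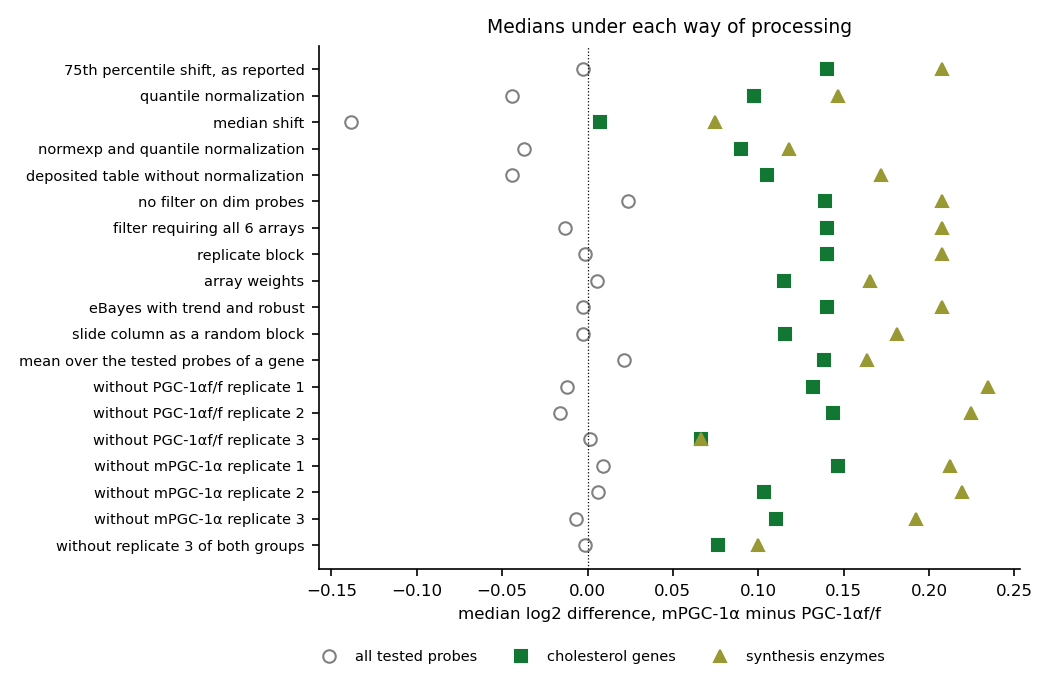
Median log2 difference, mPGC-1α minus PGC-1αf/f, of all tested probes, of the cholesterol genes and of the synthesis enzymes as reported and under 18 alternatives. The median of the cholesterol genes lies right of that of all probes in each row, and the distance is smallest, 0.065, without PGC-1αf/f replicate 3.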

How the data were processed

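Total RNA of 6 microglial samples was amplified and labelled with Cy5 by the authors, who hybridized each to a 1-colour Agilent array and deposited scanner files with the intensity of each spot from Feature Extraction 11.5.1.1 (per the labels and file headers), after subtraction of background. A deposited table of the series repeats these intensity values, not normalized between arrays.

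The members and lists were chosen with earlier results of these data known. Groups and replicate numbers came from the labels. Outlier-flagged and control spots were left out, log2 intensity was reduced by the 75th percentile of each array, spots of a probe were averaged, and a probe was tested where it was well above background (at least 0.5 of its spots) throughout at least 1 group, which gave 25257 p-values from 56605 probes. The brightest probe stood for a gene. Counts over neighbouring genes, and the matching background, took genes well above background on all 6 arrays, a choice made after seeing the data. Probes were named through their accession in a RefSeq table of GRCm38.p6, used for names and for the promoter sequences, while the array design uses another build. R 4.3.3 with limma 3.58.1 (and data.table, version 1.17.8) was used to compare mPGC-1α with PGC-1αf/f (lmFit and eBayes, two-sided tests), with Benjamini-Hochberg adjustment over all tested probes and a threshold of 0.05. The code was tested on simulated data. Python 3.11.15 drew the figures (numpy 2.4.6, pandas 2.3.3, matplotlib 3.10.9).

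Genes described by array were those with an unadjusted p under 0.05, the SREBP regulators, Abca1, Abcg1 and Ppargc1a, by a rule. Other members and the neighbouring genes Mbtps2, Erlin2 and Aup1 were described after their values were seen. Alternatives were other scalings and background corrections, the deposited table, other filters, a replicate block, array weights, trend and robust eBayes, the slide column as a random block, the mean over a gene's probes and leaving out each array. Leaving out replicate 3 of both groups was added after seeing the data. The labels do not say whether replicates were separate animals, so p-values measure the spread between these samples. The number of arrays limits the precision.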

Additional observations from a re-analysis of the deposited data

How the results depend on the processing

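The count of cholesterol genes past the adjusted threshold was 0 under all 18 alternatives, with a lowest adjusted p of 0.0933 (limma with array weights). The count at an unadjusted p under 0.05, 2 as reported, was 0 after the median shift, 0 in the deposited table, 1 without the filter on dim probes, 5 with array weights, 1 without replicate 3 of both groups (added after seeing the data), and 0 to 5 when an array was left out: 5 without PGC-1αf/f replicate 1 and 0 without PGC-1αf/f replicate 3, mPGC-1α replicate 1 or mPGC-1α replicate 2. The median of the cholesterol genes was 0.0074 after the median shift, 0.076 without replicate 3 of both groups, and 0.066 to 0.15 when an array was left out. That of the synthesis enzymes was 0.075 after the median shift, 0.12 with normexp, 0.10 without replicate 3 of both groups, and 0.066 to 0.23 when an array was left out. Fdps stayed above 0 in all 18 alternatives (0.34 to 0.54), with an unadjusted p under 0.05 in 13, and Sqle in all 18 (0.38 to 0.67), with 9. Ppargc1a had its lowest value, 0.44, without PGC-1αf/f replicate 3, its highest, 1.14, without PGC-1αf/f replicate 1, and passed in none.

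Signs turned for genes near 0. Under quantile normalization Ebp was -0.066 and Mylip -0.067. Under the median shift Ebp was -0.087, Sc5d -0.11 and Mylip -0.084. Under normexp Nsdhl was 0.079, Ebp -0.043, Lrp1 -0.0076 and Mylip -0.048. In the deposited table Sc5d was -0.018. With array weights Nsdhl was 0.016, Ebp -0.034, Dhcr7 0.030, Mylip -0.068, Abca1 0.033 and Abcg1 0.12. Without replicate 3 of both groups Pmvk was -0.024 and Ebp -0.12. Leaving out 1 array gave ranges of -0.054 to 0.057 for Nsdhl, -0.12 to 0.18 for Ebp, -0.0034 to 0.049 for Sc5d, -0.082 to 0.046 for Dhcr7, -0.14 to 0.14 for Mylip, -0.18 to 0.074 for Abca1 and -0.14 to 0.11 for Abcg1. Apoc1 passed the adjusted threshold with array weights, and Apoc2 in the deposited table, where arrays are not normalized to each other.

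Same-numbered samples deviated together with correlations of 0.139, 0.127 and 0.0187, so the numbers were not taken as pairs, although each sample correlated best with its own number. With the replicate block the median of the cholesterol genes was 0.14, that of the synthesis enzymes 0.21, and 2 genes, Fdps and Fdft1, had an unadjusted p under 0.05, while probes past the threshold went from 20 to 0. Over the 18 alternatives that number ran from 0 to 754, the latter with array weights.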
